A study of Mus musculus with 9 samples.

Results

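The small heat shock proteins of muscle were examined in C2C12 cells as 8 genes chosen by symbol from the 54307 genes of the table: Cryab, Hspb1, Hspb2, Hspb3, Hspb6, Hspb7, Hspb8 and Bag3. All 8 had a row, and 6 of the 8 passed the filter on low values and were tested among 13674 genes, while Hspb3 and Hspb7 did not pass it. C2C12 cells are mouse myoblasts of an established line, which fuse into myotubes when they differentiate. Its mRNA was sequenced after 48 h in the HL group (25 mmol/L glucose with 200 nmol/L liraglutide), the H group (25 mmol/L glucose) and the NC group (the control, whose glucose concentration is not given in the sources used here), with 3 libraries each. Liraglutide is an analogue of glucagon-like peptide-1 that activates its receptor. The study's methods speak in general of independent repeats and of designs with biological replicates, but do not tie the libraries of a group to separate cultures. If they are not separate, the p-values cover only technical spread.

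Small heat shock proteins share the alpha-crystallin domain and bind unfolding proteins without using ATP, which keeps them soluble until other chaperones refold them or pass them on for degradation. Muscle holds more of them than most tissues, and there they associate with actin, desmin, titin and filamin under mechanical and oxidative stress. Bag3 has no alpha-crystallin domain. It is the co-chaperone that ties Hspb8 to the Hsp70 chaperones in chaperone-assisted selective autophagy, the pathway that clears damaged filamin from the Z-disc. Several of these genes are textbook targets of heat shock factors, which bind arrays of the unit GAA and its reverse complement TTC.

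Promoter windows of 300 bases, 250 before and 50 after the annotated start, were found in RefSeq (build GRCm38.p6) for 6 of the 8 members, all but Cryab and Hspb2, with 7 windows because Hspb6 had 2. They were searched on both strands for a facing pair of heat shock units (GAANNTTC or TTCNNGAA). Of the 7 windows, 5 held at least 1 such pair, and they belong to 5 members, against 15.1% of 32851 promoters. The 8 letters GAAGTTTC stood in 4 of the 7 windows, against 1.21% of all promoters, and were picked out after the matches had been seen. The 4 windows that share these letters are shown because their genes differed in level between the groups in different directions. Capitals mark the heat shock pairs. The windows lie at chr5:135887669-135887968 (plus strand) for Hspb1, chr5:116422815-116423114 (minus strand) for Hspb8, chr7:128523333-128523632 (plus strand) for Bag3 and chr7:30553051-30553350 (plus strand) for the second window of Hspb6.
Hspb1: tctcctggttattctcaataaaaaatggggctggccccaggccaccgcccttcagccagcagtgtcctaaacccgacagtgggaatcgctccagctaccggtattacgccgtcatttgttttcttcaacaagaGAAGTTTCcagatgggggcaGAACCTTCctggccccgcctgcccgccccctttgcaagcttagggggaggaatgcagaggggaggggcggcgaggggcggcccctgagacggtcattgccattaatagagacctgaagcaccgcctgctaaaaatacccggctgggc
Hspb8: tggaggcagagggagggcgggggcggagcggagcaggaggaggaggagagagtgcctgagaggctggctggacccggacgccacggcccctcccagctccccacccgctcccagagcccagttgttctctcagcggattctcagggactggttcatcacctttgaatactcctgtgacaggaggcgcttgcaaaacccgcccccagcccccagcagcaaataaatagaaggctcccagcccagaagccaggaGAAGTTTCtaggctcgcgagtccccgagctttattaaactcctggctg
Bag3: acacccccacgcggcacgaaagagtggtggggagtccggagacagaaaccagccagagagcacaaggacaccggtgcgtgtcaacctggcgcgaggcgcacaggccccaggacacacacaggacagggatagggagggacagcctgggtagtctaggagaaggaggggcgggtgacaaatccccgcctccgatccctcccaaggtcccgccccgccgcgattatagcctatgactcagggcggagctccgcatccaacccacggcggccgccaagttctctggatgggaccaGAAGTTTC
Hspb6, second window: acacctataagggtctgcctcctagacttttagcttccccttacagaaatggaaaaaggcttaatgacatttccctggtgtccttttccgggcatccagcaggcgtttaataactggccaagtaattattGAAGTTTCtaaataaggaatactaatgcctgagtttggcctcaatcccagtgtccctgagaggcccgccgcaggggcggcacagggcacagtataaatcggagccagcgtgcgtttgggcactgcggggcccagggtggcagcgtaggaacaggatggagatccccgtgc
Counted from the start site, the pair GAAGTTTC began at position -117 in Hspb1, 3 in Hspb8, 43 in Bag3 and -120 in Hspb6, and Hspb1 held another pair, GAACCTTC, at -97. Hspb3 held GAATTTTC at -224, and no pair stood in the windows of Hspb7 and of the first start of Hspb6. The core of the tonicity element that NFAT5 binds (TGGAAA), present in 21.4% of all promoters, stood at -154 in the first and -201 in the second window of Hspb6, and on the other strand at -113 in Hspb1, where it shared 4 bases with GAAGTTTC. The E-box CANNTG of myogenic factors was in 72.3% of all promoters and in those of Hspb1, Hspb3, Hspb7 and Hspb8, and its form CAGCTG, in 16.3% of all promoters, was in none of the 7. The letters TATAAA, in 13.6% of all promoters, stood at -29 in the second window of Hspb6 and at -11 in Hspb3. These matches are descriptions of sequence, not of binding.

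The values are FPKM, fragments scaled to transcript length and to the mapped fragments of the library, so levels of different genes can be set side by side. FPKM per fragment, read off the smallest values of 6801 single-transcript genes, put the libraries at 16.9 to 23.1 M fragments, with 99.5% to 99.9% of 13669 such values whole to within 0.1 fragment. The transcript length used was chosen in each library to make this share largest, so the share is no independent check. The H libraries differed among themselves more than the others, where the median SD on the log2 scale was 0.0865 in HL, 0.171 in H and 0.0723 in NC over the tested genes. The myoblast label was checked against its markers: Des and Vim, the intermediate filaments desmin and vimentin, had means of 191 to 369 FPKM and 1906 to 2582 FPKM in the 3 groups, and Pax7, which marks satellite cells, was below 1 FPKM in every library. In bulk samples, fewer cells of a type and less RNA per cell cannot be told apart.

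In the H group, Cryab was the most abundant of the 8 members, whereas Hspb1 was the most abundant in HL and NC. The order of mean levels in HL was Hspb1 (336 ± 6.59 FPKM), Cryab (286 ± 27.2), Hspb8 (46.6 ± 2.66), Bag3 (46.4 ± 1.60), Hspb6 (24.2 ± 1.61) and Hspb2 (20.3 ± 3.35; SD, n = 3). In H it was Cryab (1783 ± 528 FPKM), Hspb1 (264 ± 44.8), Hspb2 (81.2 ± 10.8), Hspb8 (62.5 ± 7.88), Bag3 (58.2 ± 9.75) and Hspb6 (17.2 ± 1.37; SD, n = 3). The NC order was that of HL, with Hspb1 (204 ± 3.19 FPKM), Cryab (151 ± 7.64), Hspb8 (43.9 ± 1.61), Bag3 (37.6 ± 1.295), Hspb6 (27.3 ± 0.887) and Hspb2 (22.2 ± 1.49; SD, n = 3). Hspb7 and Hspb3 stood last in all 3 groups. Neighbours whose libraries overlapped were Hspb8 and Bag3 as well as Hspb6 and Hspb2 in HL, and Hspb2 and Hspb8 as well as Hspb8 and Bag3 in H. No neighbours overlapped in NC.

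**Figure D1:**
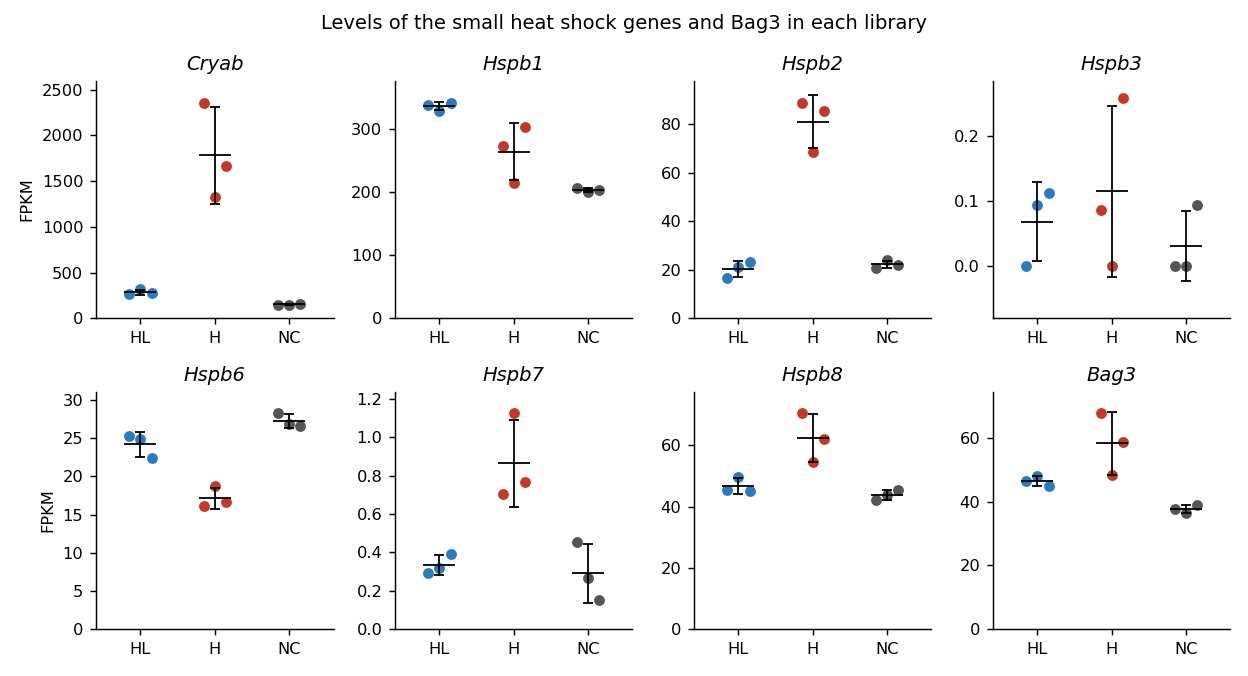
FPKM of each member (vertical axis, own scale per gene) in the 3 libraries of HL, H and NC (points), with the mean (long bar) and SD (error bar). Cryab and Hspb2 are highest in the 3 H libraries, Hspb6 is lowest there, and Hspb1 is highest in HL.

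Summed over the 8 members, the level was 741 to 791 FPKM in HL, 1728 to 2877 FPKM in H and 478 to 497 FPKM in NC, and the 3 ranges did not overlap. Cryab made up 36.1% to 40.1% of this sum in HL, 76.0% to 82.0% in H and 30.6% to 32.2% in NC. The share of Hspb1 was 41.6% to 45.7% in HL, 9.52% to 13.8% in H and 40.9% to 42.7% in NC. The members' part of all FPKM in a library was 0.105% to 0.108% in HL, 0.258% to 0.421% in H and 0.0632% to 0.0649% in NC.

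**Figure D2:**
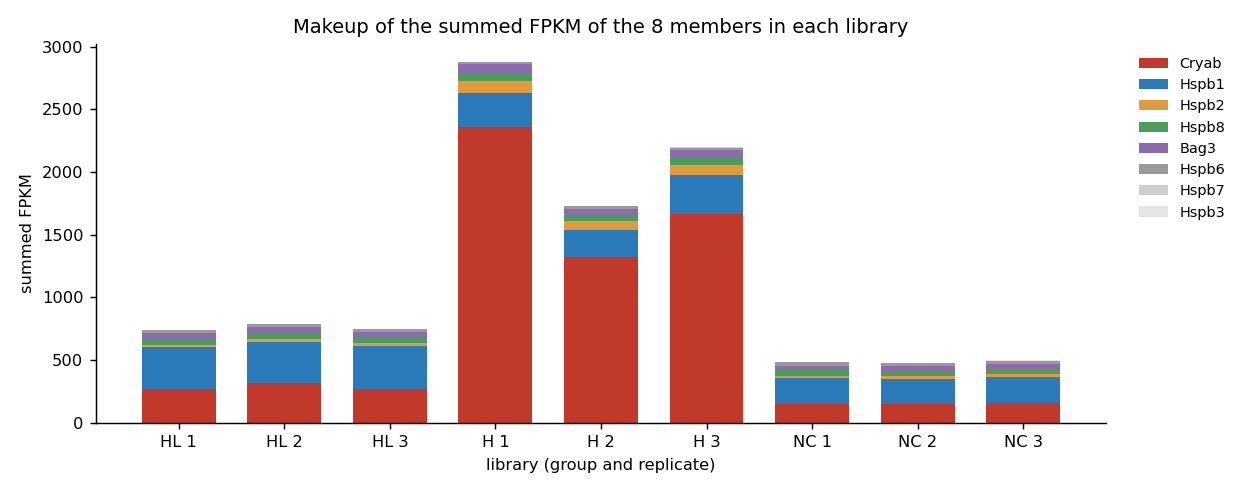
Summed FPKM of the 8 members (vertical axis) in each library of HL, H and NC, stacked by member. Cryab fills 76.0% to 82.0% of the H bars, and the 3 H bars differ in height (1728 to 2877 FPKM) mainly in their Cryab part.

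The first comparison sets high glucose without liraglutide against the control. The study's other assays had a mannitol group, which was not among the sequenced groups, so the part of solute concentration itself was not tested. Compared with the NC group, Cryab and Hspb2 rose in the H group and the other 4 tested members changed by less than the fold threshold. Calls required a log2 fold change above 1 or below -1 together with an adjusted p below 0.05, in a limma fit across all tested genes with Benjamini-Hochberg adjustment. Of the 6 tested members, 2 were called higher and 0 lower, where 10.3% of all tested genes were called higher and 5.75% lower. By adjusted p alone, 5 members were higher and 1 lower, beside 60.1% of all tested genes in either direction, and the libraries of all 6 did not overlap, as for 65.5% of all tested genes. Passing the adjusted p or not overlapping is thus common in these libraries. The members' median log2 fold change was 0.56, against -0.04 over all tested genes.

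The second comparison asks what liraglutide did under high glucose. Compared with the H group, Cryab and Hspb2 fell in the HL group. Of the 6 tested members 0 were called higher and 2 lower, where 3.55% of all tested genes were called higher and 5.83% lower. By adjusted p alone, 2 members were higher and 4 lower, beside 48.4% of all tested genes in either direction, and the libraries of all 6 did not overlap, as for 55.3% of all tested genes. The median log2 fold change of the members was -0.36, against 0.04 over all tested genes. This comparison and the first share the H libraries, so an opposite sign in them is not independent.

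The third comparison sets the treated cells against the control. Compared with the NC group, none of the 6 tested members was called in the HL group, where 6.30% of all tested genes were called higher and 2.41% lower. In the same limma fit, an unadjusted p under 0.05 took 3 members higher and 1, Hspb6, lower. At least 48.8% of all tested genes, those that pass the adjusted p, also pass this rule, so passing it is common. By adjusted p alone, 3 members (Cryab, Hspb1 and Bag3) were higher and 0 lower, beside 48.8% of all tested genes in either direction. The libraries of 4 members did not overlap, as for 65.8% of all tested genes. The median log2 fold change of the members was 0.19, against -0.04 over all tested genes.

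**Figure D3:**
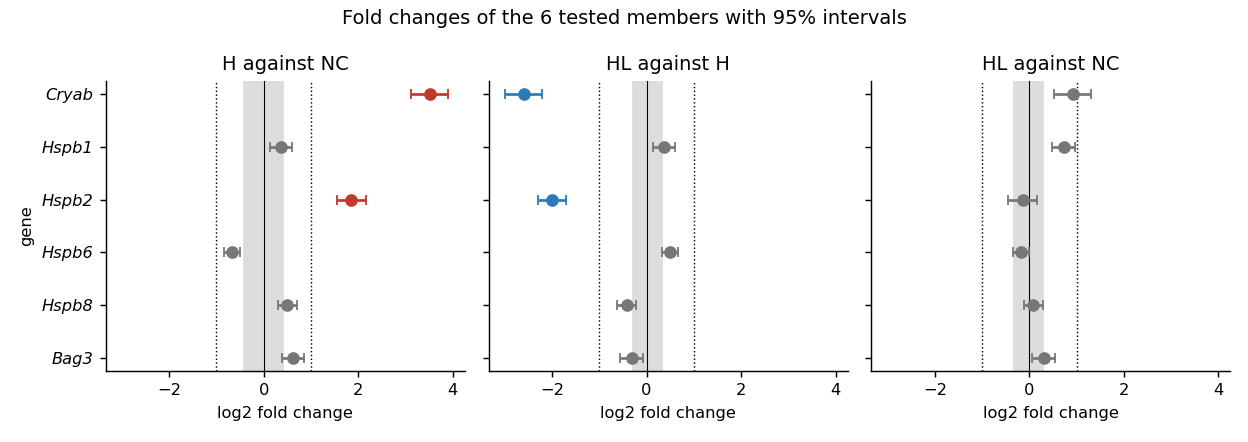
Log2 fold changes on the log2(FPKM + 0.1) scale (horizontal axis) of the 6 tested members in H against NC, HL against H and HL against NC, with 95% intervals. Dotted lines mark the fold threshold, the grey band holds the middle part of all tested genes between their quartiles, and red and blue points are called higher and lower. Cryab lies at 3.52 and Hspb2 at 1.86 in H against NC, and the same genes lie at -2.60 and -1.997 in HL against H.

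Cryab encodes alphaB-crystallin, the most studied small heat shock protein of muscle, which binds desmin, actin and titin. It had 270.0, 317 and 271 FPKM in the HL libraries, 2359, 1322 and 1669 FPKM in the H libraries and 148, 146 and 160.2 FPKM in the NC libraries. Every H library was above every other library, the lowest H library by more than the whole range of the HL or the NC libraries, and the HL libraries were all above those of NC. In H against NC the log2 fold change was 3.52 (95% interval 3.12 to 3.91, standard error 0.17, limma adjusted p = 4.57e-07), a fold of 11.4. Over the tested genes, 223 had a higher log2 fold change in this comparison. In HL against H it was -2.60 (95% interval -2.995 to -2.21, limma adjusted p = 7.86e-06), a fold of 0.165, and 256 genes had a lower value. HL remained above NC by a log2 fold change of 0.91 (95% interval 0.52 to 1.31, limma adjusted p = 0.00227). This value is just under the fold threshold, and after rescaling each library to TPM it was 1.0099 (limma adjusted p = 0.000946) and passed it, while without single libraries it was 0.84 to 0.95.

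Hspb2, known as the protein that binds the myotonic dystrophy kinase, is enriched in heart and skeletal muscle and forms a complex with Hspb3. It had 16.6, 21.3 and 23.1 FPKM in HL, 89.0, 68.8 and 85.6 FPKM in H and 20.9, 23.8 and 22.0 FPKM in NC. The H libraries stood apart, and those of HL and NC overlapped. The log2 fold change was 1.86 in H against NC (95% interval 1.55 to 2.16, limma adjusted p = 3.69e-06) and -1.997 in HL against H (95% interval -2.30 to -1.70, limma adjusted p = 7.90e-06). In HL against NC it was -0.14, with a 95% interval of -0.44 to 0.16 that bounds any difference to less than the fold threshold (limma adjusted p = 0.416).

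Cryab and Hspb2 lie side by side on chromosome 9 on opposite strands. In the mouse annotation used (GENCODE, build GRCm38), their exons share 252 bases, 17.0% of the exon bases of Cryab and 30.2% of those of Hspb2. The use of strand in counting is not given in the sources used here, so reads in the shared bases cannot be told apart and the level of Hspb2, the lower of the pair, is uncertain. The same holds for the calls of Hspb2 and for its ratio to Cryab. The part of Cryab reads in them was not tested. The ratio of Cryab to Hspb2 within a library, which does not depend on library scaling, was 16.3, 14.9 and 11.7 in HL, 26.5, 19.2 and 19.5 in H and 7.08, 6.13 and 7.30 in NC. The 3 groups did not overlap in this ratio. Between groups the log2 ratio differed by 1.66 ± 0.17 (SE) in H against NC, by -0.61 ± 0.21 in HL against H and by 1.05 ± 0.16 in HL against NC. Each gave p = 0.1 in a two-sided exact permutation test, the smallest p that 3 libraries against 3 can give, so the design cannot reach 0.05, and the adjusted p over the 9 ratio tests was 0.1125.

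Of the nearest genes with a measured level on either side of this pair, taken by position after the data had been seen, 2310030G06Rik lies 4.54 kb before it and had 6.06 ± 0.745 FPKM in HL, 27.7 ± 7.49 FPKM in H and 3.35 ± 0.416 FPKM in NC (SD, n = 3 each). Its log2 fold change was 2.98 in H against NC (limma adjusted p = 1.56e-06) and -2.15 in HL against H (limma adjusted p = 2.90e-05). Dixdc1, 11.6 kb before the pair, had log2 fold changes of 0.98 in H against NC and -0.66 in HL against H and was not called. After the pair, 1110032A03Rik at 6.19 kb had 0.43 and 0.05, and Fdxacb1 at 11.6 kb had 0.79 and -0.53 in the same comparisons, and neither was called.

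Hspb1, the small heat shock protein that caps actin filaments and is phosphorylated by the p38 pathway kinases Mapkapk2 and Mapkapk3, had 338, 329 and 342 FPKM in HL, 274, 215 and 303 FPKM in H and 207, 201 and 203 FPKM in NC. Its highest level was in HL, unlike that of Cryab, and the 3 groups did not overlap. The log2 fold changes were 0.36 in H against NC (95% interval 0.13 to 0.59, limma adjusted p = 0.0141), 0.36 in HL against H (95% interval 0.13 to 0.60, limma adjusted p = 0.0177) and 0.72 in HL against NC (95% interval 0.49 to 0.96, limma adjusted p = 0.000502). None reached the fold threshold. The difference between HL and H did not pass an adjusted p of 0.05 after rescaling to TPM (limma adjusted p = 0.0765) or without HL replicate 3 (limma adjusted p = 0.0529), and its adjusted p ranged between 0.00431 and 0.0765 over 19 alternatives.

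The ratio of Cryab to Hspb1 was 0.800, 0.964 and 0.791 in HL, 8.62, 6.14 and 5.499 in H and 0.715, 0.728 and 0.788 in NC. In H, Cryab exceeded Hspb1 in each library, and in HL and NC it was below Hspb1 in each library. The log2 ratio differed by 3.16 ± 0.20 (SE) in H against NC and by -2.97 ± 0.22 in HL against H, and by 0.19 ± 0.10 in HL against NC, where the libraries did not overlap but lay close together. Each exact permutation p was 0.1, the smallest possible (adjusted p 0.1125 over 9 tests).

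**Figure D4:**
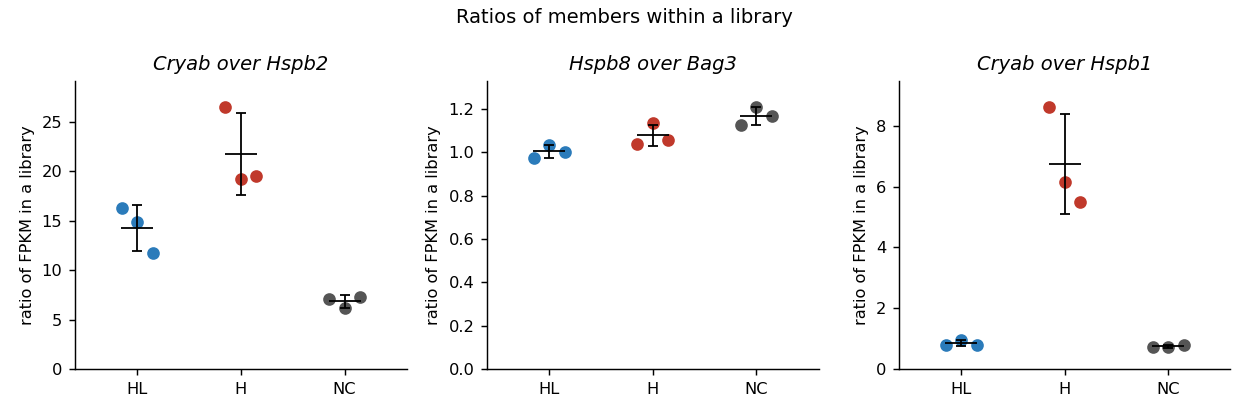
Ratio of the FPKM of 2 members within each library (vertical axis, own scale per panel) for HL, H and NC, with points for libraries, a long bar for the mean and error bars for the SD (n = 3). The ratio of Cryab to Hspb1 is 5.499 to 8.62 in H and below 1 in all HL and NC libraries, while the ratio of Hspb8 to Bag3 lies between 0.976 and 1.21 in all 9 libraries.

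Hspb8, the partner of Bag3 in selective autophagy, had 45.2, 49.7 and 44.9 FPKM in HL, 70.5, 54.7 and 62.2 FPKM in H and 42.3, 43.9 and 45.5 FPKM in NC. The H libraries were the highest, and those of HL and NC overlapped. Its log2 fold changes of 0.50 in H against NC (95% interval 0.30 to 0.70, limma adjusted p = 0.000971) and -0.41 in HL against H (95% interval -0.62 to -0.21, limma adjusted p = 0.00436) were under the fold threshold. In HL against NC it was 0.09, with a 95% interval of -0.11 to 0.29 (limma adjusted p = 0.448).

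Bag3 had 46.4, 48.0 and 44.8 FPKM in HL, 67.7, 48.2 and 58.7 FPKM in H and 37.5, 36.3 and 38.9 FPKM in NC. H replicate 2 lay only just above the highest HL library. The log2 fold changes were 0.62 in H against NC (95% interval 0.38 to 0.86, limma adjusted p = 0.0008), -0.31 in HL against H (95% interval -0.55 to -0.08, limma adjusted p = 0.0346) and 0.30 in HL against NC (95% interval 0.06 to 0.54, limma adjusted p = 0.0396). The values of HL against H and of HL against NC each passed an adjusted p of 0.05 in 11 of 19 alternatives, with adjusted p up to 0.0977 and 0.109, so neither difference is firm.

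Within a library, Hspb8 and Bag3 kept close to a ratio of 1, with 0.976, 1.04 and 1.004 in HL, 1.04, 1.13 and 1.06 in H and 1.13, 1.21 and 1.17 in NC. The libraries of H and NC overlapped (difference of the log2 ratio -0.12 ± 0.05, SE, exact permutation p = 0.2). Those of HL did not overlap with H (-0.10 ± 0.05) or NC (-0.22 ± 0.04), each with the smallest exact permutation p of 0.1 (adjusted p 0.1125 over 9 tests).

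Hspb6, a small heat shock protein phosphorylated by protein kinase A, was lower in H than in the other groups. It had 25.3, 24.9 and 22.4 FPKM in HL, 16.2, 18.7 and 16.6 FPKM in H and 28.3, 26.9 and 26.6 FPKM in NC. The H libraries were the lowest, and no groups overlapped. The log2 fold change was -0.67 in H against NC (95% interval -0.84 to -0.50, limma adjusted p = 6.23e-05) and 0.49 in HL against H (95% interval 0.32 to 0.67, limma adjusted p = 0.000728), both under the fold threshold. In HL against NC it was -0.17 (95% interval -0.34 to -0.00097, limma adjusted p = 0.0884). Its exons share 122 bases with Proser3 on the other strand, 5.31% of its exon bases, and 77 with Gm38670 and 3 with Lin37.

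Hspb7, the cardiovascular small heat shock protein that binds filamin C, was at 1 FPKM or more in only 1 library. It had 0.294, 0.316 and 0.391 FPKM in HL, 0.705, 1.13 and 0.767 FPKM in H and 0.456, 0.266 and 0.152 FPKM in NC. By the recovered steps these values stand for about 16, 17 and 17 fragments in HL, 40, 54 and 44 in H and 24, 14 and 8 in NC. The H libraries were above all others, and those of HL and NC overlapped. In a fit without the filter, over 32012 genes, the log2 fold change was 1.35 in H against NC (95% interval 0.61 to 2.095, limma adjusted p = 0.0127) and -1.14 in HL against H (95% interval -1.88 to -0.40, limma adjusted p = 0.0376), on a scale that understates changes of low genes. Both values met the call thresholds in that fit. Hspb3, the muscle partner of Hspb2, had 0, 0.0930 and 0.112 FPKM in HL, 0.0858, 0 and 0.258 FPKM in H and 0, 0 and 0.0933 FPKM in NC, about 7 fragments in all 9 libraries. No difference was detectable at this depth, where 3 fragments, the limit that a count of 0 allows in 1 library for counting error alone, are 0.253 to 0.310 FPKM.

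Among the H libraries, replicate 1 was the highest and replicate 2 the lowest for Cryab, Hspb2, Hspb8 and Bag3. Over all tested genes replicate 1 was the highest of the H libraries in 39.3% and replicate 2 the lowest in 41.1%. For Hspb1 the highest was replicate 3, and for Hspb6 and Hspb7 it was replicate 2. The calls of Cryab and Hspb2 in H against NC and in HL against H held without any 1 of the 9 libraries, with log2 fold changes of 3.29 to 3.71 and -2.80 to -2.38 for Cryab and of 1.79 to 1.97 and -2.11 to -1.86 for Hspb2. Rescaling to TPM moved the median log2 fold change of all genes in H against NC to 0.15, from -0.04, and the share of calls that were higher to 76.8%, from 64.1%. No member changed direction under it.

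The genes with the profile most like each member over the 9 libraries were taken from 9823 genes with a mean of at least 5 FPKM, by the root mean square difference of centred log2 values, and nothing about shared control is implied. Nearest to Cryab were Nupr1 (0.168), a nuclear protein induced by stress, Frat2 (0.178) and Fam213a (0.188), and the means of Nupr1 were 82.5 ± 5.35 FPKM in HL, 631 ± 192 FPKM in H and 56.0 ± 1.80 FPKM in NC (SD, n = 3 each). Nearest to Hspb2 were the water channel Aqp1 (0.126), the Hsp70 nucleotide exchange factor Hsph1 (0.158) and the potassium channel subunit Kcnmb4 (0.177). For Hspb1 they were the kinase Fyn (0.0732), Tspan5 (0.0742) and Pepd (0.0811), and for Hspb6 Ext1 (0.0473), Rtn3 (0.0549) and Usp46 (0.0608). Hspb8 was nearest to Zfp51 (0.0413), the Hippo pathway effector Yap1 (0.0485) and Zscan12 (0.0502), and Bag3 to Rita1 (0.0328), Slc38a1 (0.0438) and Atp11a (0.0502). Among the members, Hspb8 and Bag3 were the closest pair (0.0986). Cryab and its neighbour Hspb2 were 0.7092 apart, and each was the nearest member to the other. The next nearest was Bag3 (1.25) for Cryab and Hspb8 (0.7098) for Hspb2. The distance is not scaled for the size of the changes, so members that changed little lie close together.

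Of 4 other genes grouped with the small heat shock family, Hspb11 alone was tested and was not called. Hspb11 carries the family name but is an intraflagellar transport protein without the alpha-crystallin domain. It had 43.1 ± 1.14 FPKM in HL, 26.4 ± 7.17 FPKM in H and 44.1 ± 1.72 FPKM in NC (SD, n = 3 each). The log2 fold change in H against NC was -0.78. The next most abundant, Hspb9, was below 1 FPKM in group means, and the lens gene Cryaa was listed at 0 in HL and NC.

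The lists from here on are read beside all tested genes. In H against NC 10.3% of these were called higher and 5.75% lower (median log2 fold change -0.04). The shares were 3.55% and 5.83% in HL against H (median 0.04) and 6.30% and 2.41% in HL against NC (median -0.04). A single call in a list of 12 lies near such shares. Of 12 partners in chaperone-assisted selective autophagy, all tested, 1 was called higher and 0 lower in H against NC (median log2 fold change 0.28), 0 and 0 in HL against H (median -0.25), and 1 higher and 0 lower in HL against NC (median 0.15). The called gene was Sqstm1, the autophagy receptor p62, with 688 ± 9.42 FPKM in HL, 912 ± 161 FPKM in H and 335 ± 7.79 FPKM in NC (SD, n = 3 each). Its log2 fold change was 1.43 in H against NC (limma adjusted p = 3.31e-06) and 1.04 in HL against NC (limma adjusted p = 6.36e-05). In HL against H, where none was called, the 2 most abundant partners were Hspa8, the constitutive Hsp70, at a log2 fold change of 0.24, and Sqstm1 at -0.39.

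Of 12 clients and cytoskeletal partners, all tested, 0 were called higher and 1 lower in H against NC (median log2 fold change -0.37), 2 higher and 0 lower in HL against H (median 0.48), and 2 higher and 0 lower in HL against NC (median 0.05). Tubb5, a beta-tubulin, fell in H against NC by 1.20 on the log2 scale (limma adjusted p = 1.37e-06). Ttn, the giant sarcomere protein titin, and Acta1, skeletal actin, rose in HL against H by log2 fold changes of 1.85 and 1.57 (limma adjusted p = 0.00146 and 7.88e-05) and in HL against NC by 1.65 and 1.41 (limma adjusted p = 0.00262 and 0.000158). These 2 clients are also sarcomere genes of differentiation, and the levels of Acta1 were 10.8 ± 0.626 FPKM in HL, 3.61 ± 0.762 FPKM in H and 4.04 ± 0.696 FPKM in NC (SD, n = 3 each).

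Of 17 targets of the heat shock factor HSF1, 16 were tested, and 3 were called higher and 2 lower in H against NC, with a median log2 fold change of -0.22. Those that rose were Hspa4l (2.77), Hspa1b (2.73) and Hsph1 (1.80), Hsp70 relatives of the cytosol, and the 2 that fell were the mitochondrial chaperonins Hspe1 (-1.20) and Hspd1 (-1.15). In HL against H, 0 were called higher and 3 lower (median -0.01), namely Hspa1b (-3.35), Hspa4l (-2.49) and Hsph1 (-2.10). In HL against NC 0 were called in either direction, and the 2 most abundant were Hsp90ab1 (-0.07) and Hspa8 (-0.36), with a list median of -0.35. Hspa1b had 16.7 ± 1.59 FPKM in HL, 176 ± 47.0 FPKM in H and 25.8 ± 0.716 FPKM in NC (SD, n = 3 each), and its near-identical copy Hspa1a, with which reads may be split, had 0.490, 1.13 and 0.744 FPKM as means of HL, H and NC.

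All 12 targets of NFAT5, the factor of the response to hypertonicity, were tested. In H against NC 6 were called higher and 0 lower, beside 10.3% and 5.75% of all tested genes. The median log2 fold change of the list was 1.29, against -0.04 over all tested genes. The targets with the largest change were the betaine transporter Slc6a12 (9.21), the aldose reductase Akr1b3 (4.61) and Hspa4l (2.77). In HL against H 0 were called higher and 5 lower (median -0.58), led by Slc6a12 (-8.16), Akr1b3 (-4.64) and Hspa1b (-3.35). The glucose transporter Slc2a1 was the 1 target called in HL against NC (log2 fold change 1.01, limma adjusted p = 1.90e-05, median of the list 0.21). Slc6a12 had 0.249 ± 0.340 FPKM in HL, 75.4 ± 23.2 FPKM in H and 0.0295 ± 0.0512 FPKM in NC (SD, n = 3 each), so its fold changes rest on the pseudocount and are no bound. It passed the filter only through the H libraries. Hspa4l, Hspa1b, Hspa8, Nfat5, Acta1, Myod1, Des and Vim each stand in more than 1 of the lists examined.

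Of 9 heat shock factors and regulators, all tested, 1 was called higher and 1 lower in H against NC (median log2 fold change 0.13), 0 higher and 1 lower in HL against H (median -0.19) and 0 in HL against NC (median -0.07). Mapkapk3 was called in both, higher in H against NC (2.15) and lower in HL against H (-1.20), at 0.609 to 1.36 FPKM in HL, 1.72 to 2.44 FPKM in H and 0.298 to 0.473 FPKM in NC, and Myod1, the myogenic factor, fell in H against NC (-1.29). Outside H, Mapkapk3 reached 1 FPKM only in HL replicate 1, so it passed the filter only through H, where it is high. Hsf1 had 31.9 ± 1.03 FPKM in HL, 34.8 ± 5.72 FPKM in H and 33.5 ± 0.859 FPKM in NC, and differed by 0.04 on the log2 scale in H against NC (limma adjusted p = 0.766). Hsf2, at 22.1 ± 0.862 FPKM in HL, 40.1 ± 6.28 FPKM in H and 19.9 ± 1.24 FPKM in NC, was not called, with 0.999 in H against NC, just under the fold threshold, and -0.84 in HL against H. Nfat5 had 19.9 ± 0.462 FPKM in HL, 24.6 ± 1.22 FPKM in H and 17.1 ± 0.465 FPKM in NC (SD, n = 3 each), with 0.52 and -0.30 in these comparisons, and was not called. In HL against NC, the 2 regulators with the highest mean level over the 9 libraries were Mapkapk2 (-0.26) and Mapk14 (-0.17).

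Some markers of differentiation and of other cells differed between the groups, and their part in the members' levels was not tested. The summed level of 10 myotube markers was 33.0 to 35.9 FPKM in HL, 10.04 to 12.7 FPKM in H and 17.3 to 18.3 FPKM in NC. These sums were lowest in H, where Cryab was highest, and both were higher in HL than in NC. Myh1 and Ckm were below 1 FPKM in group means. All 4 tested myotube markers rose in HL against H, led by Myl1 (log2 fold change 2.11), Acta1 (1.57) and Myog (1.41). Myog was at 1.80 to 2.17 FPKM in HL and at most 0.723 FPKM in H and 0.965 FPKM in NC. It thus passed the filter only through HL, the group where it is high, and its rise in HL adds no support. In H against NC 1 fell (Myl1, -1.44), and in HL against NC 3 rose (Acta1, 1.41, Myog, 1.17, and Tnnt3, 1.06). Of 6 myoblast markers, 5 were tested, and Myod1 fell in H against NC, Cdh15 rose in HL against H (1.27) and Myf5 rose in HL against NC (1.502), at sums of 2993 to 3037 FPKM in HL, 2098 to 2168 FPKM in H and 2502 to 2529 FPKM in NC. Most of each sum is Vim, with means of 2582, 1906 and 2221 FPKM in HL, H and NC. The markers did not move together, as by adjusted p alone 1, Myf5, was higher in H against NC and 4 were lower.

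The 6 macrophage markers summed to 49.5 to 52.3 FPKM in HL, 171 to 248 FPKM in H and 33.1 to 34.6 FPKM in NC. The 3 tested ones rose in H against NC, namely Csf1r (7.85), Cd68 (1.85) and Cd14 (1.35), while 2 of them fell in HL against H (Csf1r, -8.40, and Cd14, -1.20), and Cd68 rose in HL against NC (1.98). Csf1r was at most 0.282 FPKM in HL and 0.686 FPKM in NC, so it passed the filter only through H. The defining markers Adgre1 and Ptprc had group means of at most 0.0296 and 0.0109 FPKM, and Lyz2 was below 1 FPKM. The 3 endothelial markers summed to 1.03 to 1.08 FPKM in HL, 1.47 to 3.96 FPKM in H and 0.297 to 0.376 FPKM in NC, and Cdh5, the 1 tested, was higher in H against NC (2.63) and lower in HL against H (-1.65). Cdh5 passed the filter only through H, with at most 0.642 FPKM in HL and 0.280 FPKM in NC, so these directions add no support. Of the untested markers, Pecam1 had its highest mean in H (0.366 FPKM) and Kdr in HL (0.195 FPKM, against 0.0778 FPKM in H). The 4 adipocyte markers summed to 9.63 to 10.1 FPKM in HL, 9.73 to 14.9 FPKM in H and 12.9 to 15.6 FPKM in NC, with 2 tested, Fabp4 (-0.03) and Pparg (-0.76) not called in H against NC, and Pparg lower in HL against NC (-1.53). The 4 smooth muscle markers, of which myoblasts also express Acta2, Cnn1 and Tagln, summed to 319 to 341 FPKM in HL, 216 to 422 FPKM in H and 769 to 792 FPKM in NC. Of the 3 tested, Tagln (-1.80) and Acta2 (-1.14) fell in H against NC, Cnn1 fell in HL against H (-1.42), and all 3 fell in HL against NC.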

How the data were processed

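Per the labels and the study's methods, total RNA was extracted from C2C12 cells, mRNA was enriched, and libraries were sequenced on an Illumina HiSeq instrument. The authors deposited 1 FPKM value per gene and library. The submitters' processing notes name HISAT2 (version 2.1.0), StringTie (version 1.3.3b) and build mm39. The sources differ in the genome they name. Of the transcript lengths tried, those 210 to 325 bases under the annotated length made the smallest FPKM most nearly whole fragments. Only shortened lengths were tried, not the annotated length itself. The result therefore does not tell which tool made the FPKM. The identifiers are mouse Ensembl genes. Gene coordinates of the authors' build are not given, while promoter windows carry the build of RefSeq. FPKM are scaled to length and mapped fragments and are not counts, so no count test was run.

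The test was that of limma (R 4.3.3, limma 3.58.1, statmod 1.5.0; trend and robust options) on log2(FPKM + 0.1), in 1 fit of 9 libraries with 6 residual degrees of freedom, over genes with at least 1 FPKM in at least 3 libraries. Benjamini-Hochberg adjustment was made per comparison, and the fit was tested on simulated data. Ratios of members were compared by exact permutation tests. The software was Python 3.11.15, SciPy 1.17.1, pandas 2.3.3 and matplotlib 3.10.9.

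The members and the lists were chosen with earlier results of these data known. The genes named are all members, in each list up to 3 called genes with the largest change or, in lists with no call, the 2 with the highest mean FPKM over the 9 libraries, Hsf1, Hsf2 and Nfat5, and the 3 nearest profiles of each tested member. Alternatives tried were no filter, a mean of at least 5 FPKM, a pseudocount of 1 or 0.01, rescaling to TPM, centring on the median, no robust option, only the groups compared, a replicate block, weights per library, adjusted p alone, and leaving out each library in turn. Splicing, interaction networks and protein assays were not analysed here.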

Additional observations from a re-analysis of the deposited data

How the results depend on the processing

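The numbers of calls over all tested genes were 1402 higher and 786 lower in H against NC, 486 and 797 in HL against H, and 862 and 330 in HL against NC. Without a filter, 2711 genes were called higher in H against NC, 1606 lower in HL against H and 622 lower in HL against NC. That fit held 32012 genes and all 8 members. It called 3 members higher in H against NC and 3 lower in HL against H, with Hspb7 beside Cryab and Hspb2. Hspb7 reached 1 FPKM in only 1 library, H replicate 2. With a mean of at least 5 FPKM, 517 were higher in H against NC, 255 higher and 270 lower in HL against H, and 306 higher and 150 lower in HL against NC. A pseudocount of 1 gave 256 higher in HL against H and 446 higher and 198 lower in HL against NC. By adjusted p alone, 3711 were higher and 4513 lower in H against NC, 3652 and 2967 in HL against H, and 2957 and 3717 in HL against NC. Of the members, that rule took 5 higher and 1 lower in H against NC, 2 higher and 4 lower in HL against H, and 3 higher in HL against NC. Rescaling to TPM took 1 member, Cryab, higher in HL against NC. Leaving out 1 library gave 444 to 801 genes lower in HL against H (444 without H replicate 1 and 520 without H replicate 3). The members called stayed at 2 in H against NC and at 2 in HL against H without any 1 library, and at 0 in HL against NC. Of 360 values of single members under the alternatives, 348 kept their direction and side of the threshold, as did 72 of 72 values of ratios, where no p can pass it, and none reversed. The filters, no robust option, only the groups compared, the replicate block and adjusted p alone leave a member's log2 fold change as it was. So does leaving out a library of the group not compared. Direction was fixed under these alternatives, which are no check of it. For members that were not called, keeping their side of the threshold says nothing about their adjusted p.

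Whether the replicate numbers pair the samples is not given in the sources used here. Same-numbered libraries had correlations of their deviations of -0.04 to 0.09, so no shared effect of a number was seen, and the main fit took the samples as unpaired. With the replicate block, 1402 genes were higher and 794 lower in H against NC, 486 and 802 in HL against H, and 848 and 332 in HL against NC, and the members called were 2, 2 and 0. The block left each log2 ratio difference as it was (for Cryab over Hspb2 1.66 in H against NC). It could not do otherwise, as each replicate number occurs once in every group, so this is no check. The limits of these data are 3 libraries per group, an unknown strand setting for the overlapping exons of Cryab and Hspb2, and few fragments for Hspb7 and Hspb3.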
